A study of Jatropha curcas with 31 samples.

Results

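The PDAT, LPAAT and phosphatidate phosphatase (PAP) contigs of Jatropha curcas, an oilseed shrub, were described on every probe that the seed array carries for them. The 7 contigs were contig02496 and contig13416 for PDAT, contig15092 and contig00090 for LPAAT, and contig05216, contig03775 and contig10134 for PAP. All probes whose name begins with one of these contig identifiers were taken, which gave 36 of the 57842 probes (6 for PDAT, 11 for LPAAT and 19 for PAP) and 7 of the 19838 contigs on the array. The PDAT and PAP contigs are all those that the study lists for these enzymes, whereas the LPAAT pair was chosen by its measured difference between stages VI and I, as the highest and the lowest of 8 listed contigs. That difference, and those of other comparisons with stages I and VI, are given as descriptions with no test.

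RNA was hybridized with 1 colour to 31 arrays: leaf of a toxic accession (5 arrays), leaf of a non-toxic accession (5 arrays), and whole seed at 6 maturation stages. The stages are named after the colour of the fruit: green-white (I, 3 arrays), green-half (II, 4 arrays), green-black (III, 3 arrays), yellow (IV, 3 arrays), brown (V, 4 arrays) and dry (VI, 4 arrays). By the methods all seeds came from 1 selected plant, so the spread between seed arrays would hold no difference between plants. Titles of some seed arrays carry a year or another tag whose meaning is not given. Ages and treatments of the leaf plants are not given in the sources used here, and nothing says that the leaf arrays of an accession came from separate plants, so their p-values measure the spread between these samples only. Codes in the titles of some leaf arrays recur in part, and whether these arrays share a source is not stated. The fit treats them as independent. Seed and leaf are mixtures of cells, in which fewer cells of a type and less RNA per cell cannot be told apart.

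Seed oil is stored as triacylglycerol, built on a glycerol backbone by stepwise acylation. LPAAT (lysophosphatidic acid acyltransferase) adds an acyl chain to lysophosphatidic acid and makes phosphatidic acid, and PAP removes the phosphate from phosphatidic acid to give diacylglycerol, which also feeds membrane lipids. PDAT (phospholipid:diacylglycerol acyltransferase) makes triacylglycerol by moving an acyl chain from a phospholipid onto diacylglycerol, beside DGAT (diacylglycerol acyltransferase), which takes it from acyl-CoA.

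Values are log2 of the spot intensity after quantile normalization over the 31 arrays, a relative scale on which 1 unit is a 2-fold difference and on which levels of different probes cannot be compared. Between 47.9% and 69.6% of the probe spots of an array stood well above background, the flag of the scanner software for a spot brighter than its surroundings. The arrays lay on 4 slides. Slides 1 to 3 each held all 6 stages and 1 leaf array per accession, and slide 4, with a scan day of its own, carried 1 array each of stages II, V and VI beside 2 leaf arrays per accession. Slide 4 stood apart: arrays of the same group correlated with r of 0.946 to 0.985 over all probes within slides 1 to 3 (24 pairs), and with r of 0.884 to 0.931 where 1 of the pair was on slide 4 (21 pairs). Of the 5 leaf and seed markers, photosystem II 10 kDa protein read 17.63 to 18.52 in leaf, against 9.65 to 11.51 in seed, and the storage protein vicilin was well above background on 1 of 10 leaf arrays, against all 21 seed arrays. The RuBisCO large subunit (12.36 to 17.41 in leaf and 8.72 to 14.46 in seed), a PsbP domain protein (5.25 to 8.05 and 4.84 to 8.29) and a late embryogenesis abundant protein (11.16 to 18.41 and 11.29 to 18.63) overlapped between leaf and seed.

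Of the 36 probes, 11 were well above background on all 31 arrays and 5 on none. No value of a member was imputed (0 of 1116) and none was saturated. Probes start at every 250 bases of a contig and alternate between the direction of the contig (sense) and the opposite one (antisense). These directions refer to the contig as assembled, which need not be the strand of the transcript. On each of the 7 contigs the brightest probe of 1 direction stood well above that of the other. The brighter direction was sense for contig13416, contig15092, contig00090 and contig03775, and antisense for contig02496, contig05216 and contig10134. The gap between the brightest probes of both directions was lowest at contig00090 (2.68) and highest at contig02496 (6.93). Over all 14856 contigs with probes in both directions the median gap was 4.34. Because the probes of a gap differ in sequence, it describes the array and is not a ratio of transcript levels. The brightest probe of each contig, by its mean over the 31 arrays, stands for it below, and 210 of the 217 values of these 7 probes were well above background. Of the other 7 values, 6 belonged to contig00090 on slide 4 and 1 to contig03775 at stage III.

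**Figure D1:**
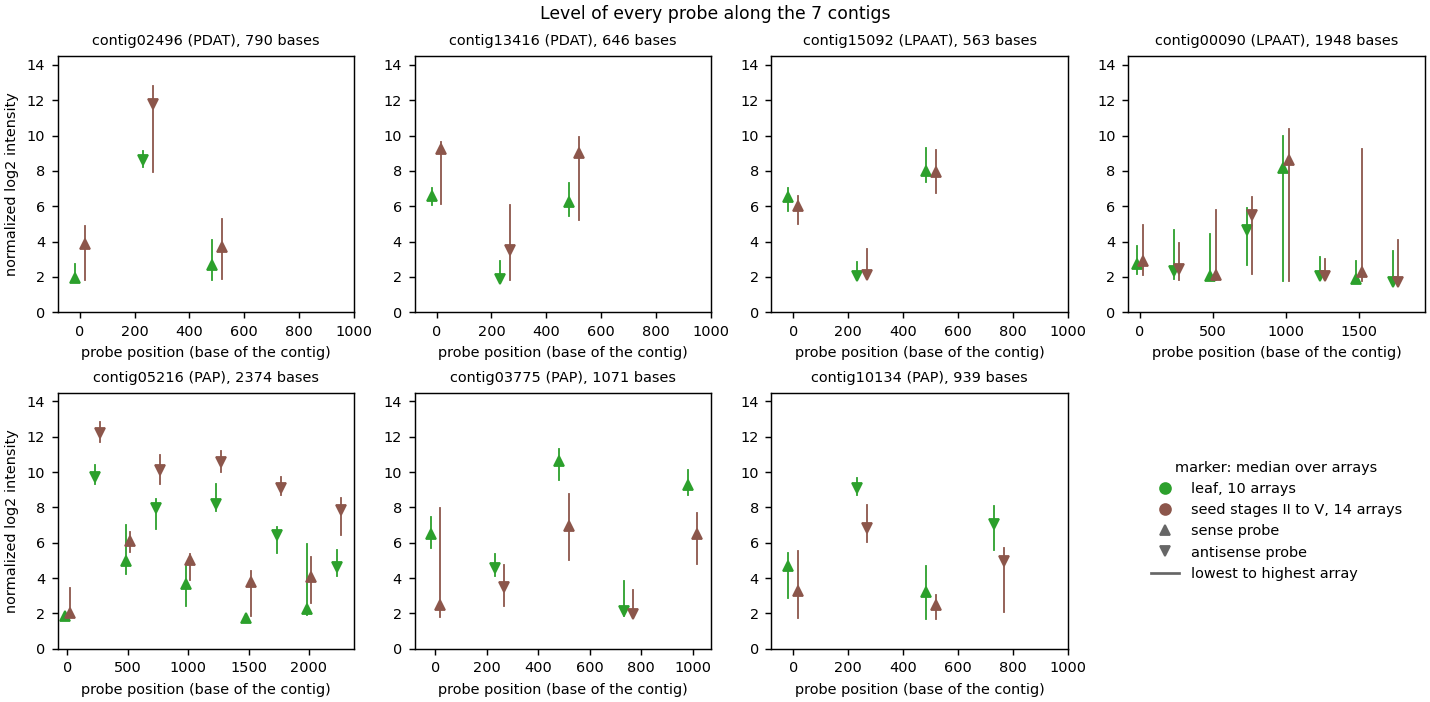
Median normalized log2 intensity (vertical axis) of each probe by its position on the contig in bases (horizontal axis), for 10 leaf arrays and 14 seed arrays of stages II to V, with bars from the lowest to the highest array. The brighter probes of contig05216 are all antisense, those of contig03775 are sense, and contig00090 has 1 bright probe, at position 1000, with a dimmer antisense one at 750.

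Both PDAT contigs were lowest at stage I, rose at stage III against II and were highest in dry seed, and in leaf both lay near the level of seed stage II. Contig02496 is annotated as phospholipid:diacylglycerol acyltransferase 1-like. Contig13416 is listed by the study both under PDAT and under phosphatidylcholine-sterol O-acyltransferase, an enzyme of the same family.

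For contig02496 the brightest probe (position 250, antisense) read 8.40, 8.28, 8.48, 9.12 and 8.96 in toxic leaf and 8.23, 8.49, 8.69, 8.94 and 8.92 in non-toxic leaf. In seed it read 7.25, 7.16 and 7.94 at stage I, 7.96, 8.99, 8.83 and 8.84 at stage II, and 11.10, 11.64 and 11.26 at stage III. It then read 11.98, 11.99 and 12.10 at stage IV, 12.39, 12.28, 12.26 and 12.83 at stage V, and 12.47, 12.40, 12.38 and 12.97 at stage VI. Stages II and III did not overlap, nor did III and IV or IV and V, whereas stage VI overlapped stage V and the leaf arrays overlapped stage II. Between stages VI and I the difference was 5.11 (SE 0.27), a 34.4-fold higher level in dry seed, and only 0.11 (SE 0.25) of it fell between stages VI and V (0.08, 0.12, 0.12 and 0.14 within slides 1 to 4).

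For contig13416 the brightest probe (position 0, sense) read 6.08, 6.55, 6.18, 6.66 and 6.66 in toxic leaf and 6.49, 6.31, 6.56, 6.99 and 7.05 in non-toxic leaf. In seed it read 4.82, 4.91 and 5.36 at stage I, 6.68, 6.42, 6.12 and 6.59 at stage II, and 8.66, 9.46 and 8.70 at stage III. Values of 9.21, 9.32 and 9.34 followed at stage IV, 9.41, 9.39, 9.65 and 9.35 at stage V, and 10.42, 10.31, 10.28 and 9.65 at stage VI. Stages I, II and III were separate from each other, III overlapped IV, and V and VI met only at the value of 9.65, where the slide 4 array was the lowest of stage VI. Dry seed lay 5.14 (SE 0.24) above stage I, or 35.2-fold. Stage VI was above stage V on every slide (0.71, SE 0.22, and 1.02, 0.92, 0.62 and 0.30 within slides 1 to 4), and whether this step differed between the PDAT contigs was not tested. The other sense probe of the contig, at position 500, was 2.95 (SE 0.41) higher at stage III than at stage II, against 2.49 (SE 0.24) for the brightest.

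**Figure D2:**
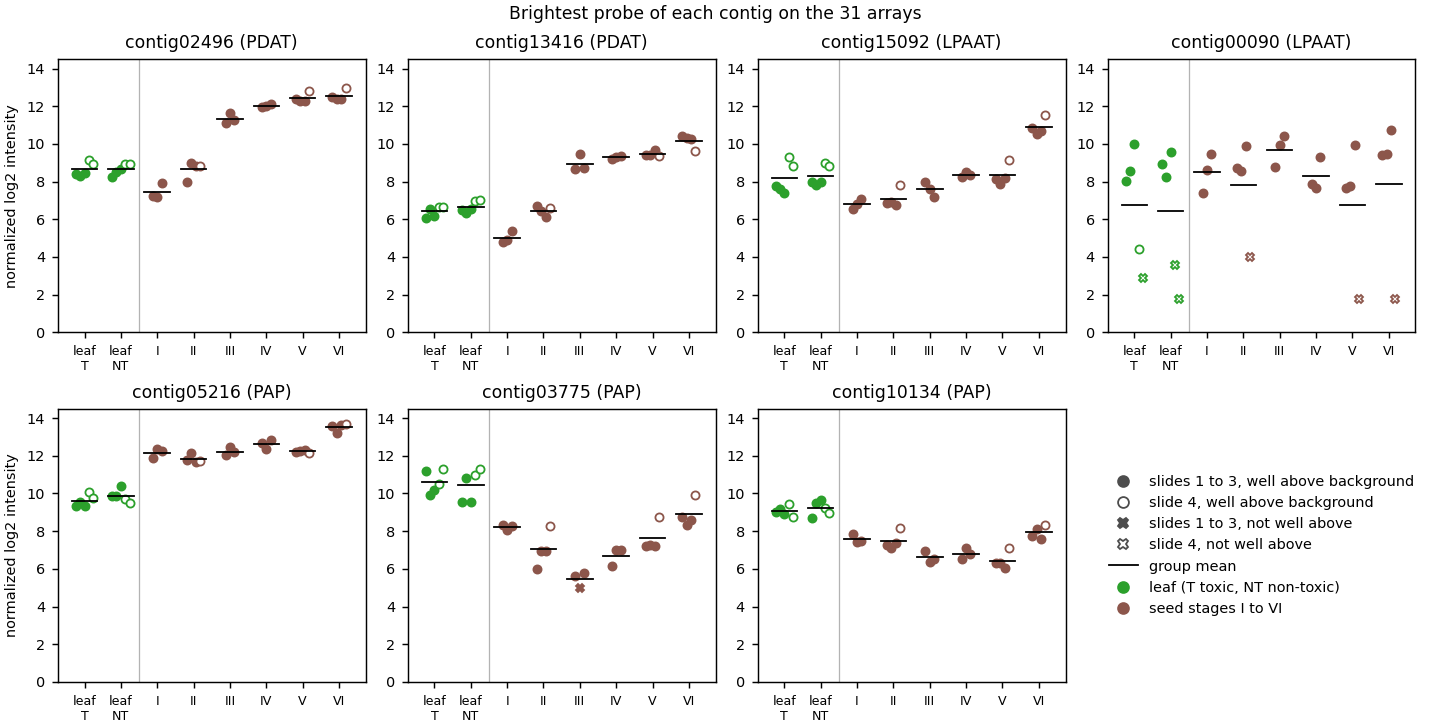
Normalized log2 intensity (vertical axis) of the brightest probe of each contig on every array, by group (horizontal axis: leaf, then seed stages I to VI), with group means as lines. Open symbols are slide 4 arrays and crosses are spots not well above background. Both PDAT contigs climb through the stages, contig00090 falls on slide 4 in every group present there, and contig03775 and contig10134 lie higher in leaf than in seed stages II to V.

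Between stages II and III the PDAT contigs had their largest tested difference. At stage III against II, 10 of the 36 probes were called (limma, adjusted p under 0.05), where 16.7% of all 57842 probes were, 6 higher (6.52% of all probes) and 4 lower (10.2%). With each array scaled to its 75th percentile in place of quantile normalization, which moved the median of all probes from 0.03 to 0.45, the split was 9 higher and 1 lower. PDAT held 5 of the 6 higher calls. Contig02496 was 2.68 (SE 0.27) higher at stage III, a 6.39-fold level (adjusted p = 1.16e-07, limma), and contig13416 was 5.61-fold higher (adjusted p = 6.51e-08, limma). Within slides 1, 2 and 3 the differences were 3.14, 2.65 and 2.43 for contig02496 and 1.98, 3.04 and 2.58 for contig13416. A dim antisense probe of contig13416 at position 250 was also called, for which no array of stage II was well above background (at least 2.76-fold higher at stage III). That call was lost without the slide 2 array of stage III (adjusted p = 0.125, limma), with normexp background correction (0.21, adjusted p = 0.192) and in the authors' table (0.99, adjusted p = 0.0519). With normexp and in the authors' table the difference is smaller than the bound of 2.76-fold.

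No PDAT probe (0 of 6) was called at stage IV against III or at V against IV by limma. Over the 36 probes, 12 and 2 had an unadjusted p under 0.05 in these steps, where 23.3% and 13.5% of all probes did. The brightest probe of contig02496 differed by 0.69 (SE 0.29, adjusted p = 0.134, limma) between stages IV and III and by 0.42 (SE 0.27, adjusted p = 0.593) between V and IV. The first of these was called with slide as a term of the model (adjusted p = 0.0167, limma), on slides 1 to 3 alone (adjusted p = 0.0290), with normexp background correction (0.0369) and in the authors' table (0.00404), and within the 3 slides it was 0.88, 0.35 and 0.85. At V against IV the probe at position 0 was called on slides 1 to 3 alone (0.79, adjusted p = 0.0329, limma).

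Leaf was lower than the mean of seed stages II to V on all 6 PDAT probes. In this comparison 25 of the 36 probes were called, 8 higher in leaf and 17 lower, where 47.9% of all probes were called, 26% higher and 21.9% lower. With 75th percentile scaling the split was 5 higher and 18 lower and the authors' own log2 values gave 13 and 16, with the median of all probes at -0.20 and 0.18 under these, against 0.06 in the main values. Contig02496 lay at 0.181 times the seed level in leaf (difference -2.46, SE 0.15, adjusted p = 8.36e-14, limma) and contig13416 at 0.253 times (difference -1.98, SE 0.13, adjusted p = 7.89e-13). Leaf overlapped stage II for both contigs and lay below every array of stages III to V. Against the ends of the series, leaf was 1.2 (SE 0.23) above stage I and 3.90 (SE 0.21) below stage VI for contig02496, and 1.52 (SE 0.21) above and 3.61 (SE 0.19) below for contig13416, values given with no test. The dim probes of contig02496 at positions 0 and 500 and of contig13416 at 250 were not well above background on any leaf array. In the main values they were at least 2.27-fold, 1.45-fold and 2.06-fold lower there, and in the authors' table each difference was smaller than its bound. The call of position 500 of contig02496 was lost in 13 of the 31 fits that left out 1 array (adjusted p of 0.0543 to 0.0990), with normexp (-0.11, adjusted p = 0.158) and in the authors' table (-0.21, adjusted p = 0.374), where the difference is smaller than that bound.

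**Figure D3:**
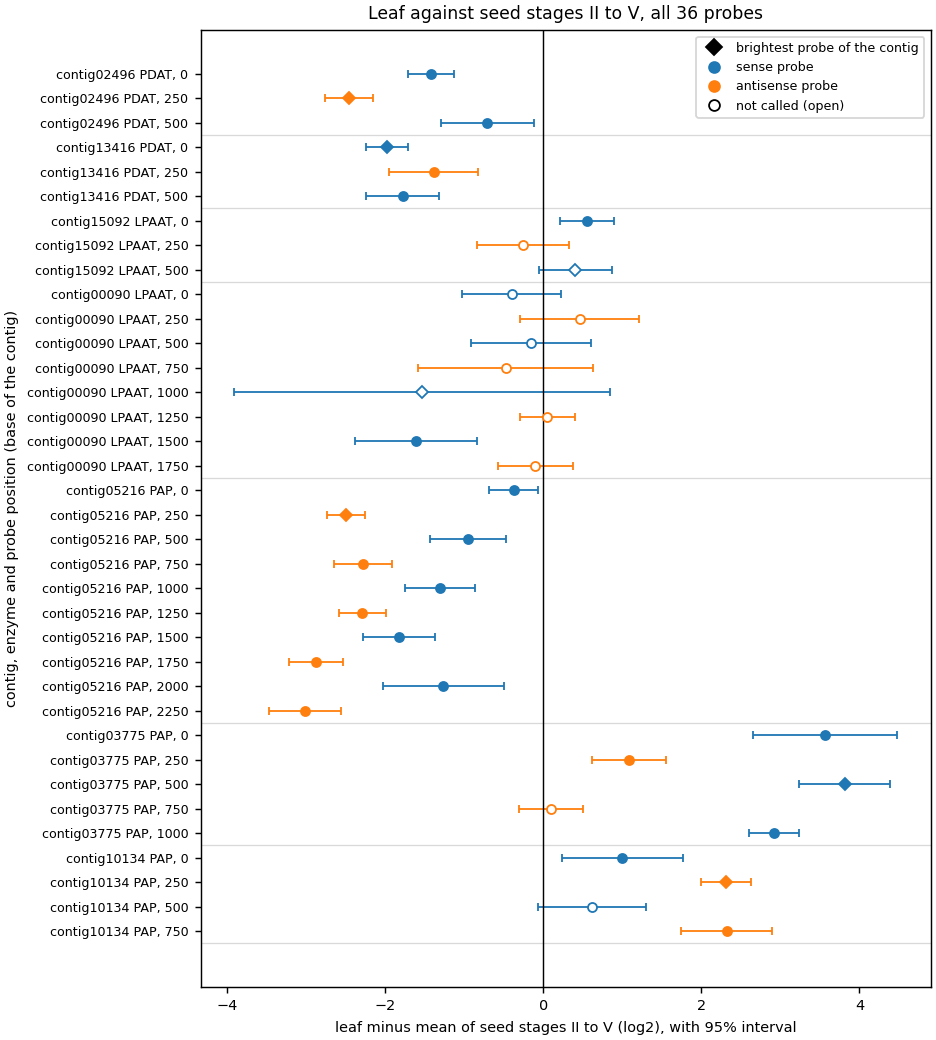
Difference in normalized log2 intensity between leaf and the mean of seed stages II to V (horizontal axis, with 95% intervals) for each of the 36 probes (vertical axis, by contig and position). All PDAT and contig05216 probes lie below 0, and the called probes of contig03775 and contig10134 lie above it.

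The LPAAT contigs had been chosen for their difference between stages VI and I. Contig15092 was the listed LPAAT contig with the largest difference between stages VI and I (4.09, SE 0.41, or 17.0-fold), followed by contig15096 (2.74), and contig00090 had the smallest (-0.64, SE 2.12), next to contig10054 (0.55). This order holds for all 31 arrays. The value of contig00090 turned positive on slides 1 to 3 (1.32) and with slide as a term of the model (0.895). Its rank among the listed contigs was not computed under these settings.

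Contig15092 was highest in dry seed. Its brightest probe (position 500, sense) read 7.75, 7.61, 7.38, 9.32 and 8.85 in toxic leaf and 7.98, 7.80, 7.95, 8.97 and 8.84 in non-toxic leaf. In seed it read 6.52, 6.80 and 7.06 at stage I, 6.86, 6.90, 6.75 and 7.80 at stage II, and 7.98, 7.62 and 7.19 at stage III. Values of 8.23, 8.52 and 8.34 were measured at stage IV, 8.14, 7.89, 8.17 and 9.16 at stage V, and 10.82, 10.52, 10.67 and 11.53 at stage VI. Stage VI stood clear of every other group, the neighbouring stages from I to V overlapped, apart from III and IV, and the slide 4 array was the highest at stages II, V and VI. The difference between stages VI and V was 2.55 (SE 0.38), and within slides 1 to 4 it was 2.68, 2.63, 2.50 and 2.37. The second sense probe, at position 0, read 9.09, 8.55, 8.85 and 8.47 at stage VI, its highest group, against 6.40, 5.50, 6.17 and 6.58 at stage V. Because the contig was chosen by its difference between stages VI and I, neither probe is a test of the high level at stage VI.

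In the main values none of the tested steps between stages II and V was called for the brightest probe of contig15092 over all 31 arrays (adjusted p of 0.471, 0.316 and 1.00, limma). On slides 1 to 3 alone it was 0.67 higher at stage III than II (adjusted p = 0.00863, limma) and 0.70 higher at IV than III (adjusted p = 0.00679). With slide as a term of the model the values were 0.80 (adjusted p = 0.00357) and 0.77 (adjusted p = 0.00829). In the authors' table, over all 31 arrays, these steps were called too, at 0.66 (adjusted p = 0.00301, limma) and 0.75 (adjusted p = 0.00231). Leaf and seed stages II to V did not differ beyond the spread for this probe (0.40, 95% interval -0.06 to 0.86, adjusted p = 0.149, limma). Within slides 1 to 4 the differences were 0.06, -0.02, 0.05 and 0.51, the last against stages II and V only. In the authors' table the probe was called higher in leaf (0.51, adjusted p = 1.85e-05, limma). The probe at position 0 was 0.55 (SE 0.17) higher in leaf (adjusted p = 0.00791, limma), a call that was lost on slides 1 to 3 alone (0.29, adjusted p = 0.180) and with 75th percentile scaling (0.21, adjusted p = 0.358).

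In the main values the brightest probe of contig00090 differed more between slides than between stages. Whether this came from the slide itself or from the samples it carried was not tested. The study lists contig00090 both as LPAAT and as glycerol-3-phosphate acyltransferase, the enzyme of the step before, and annotates it as glycerol-3-phosphate acyltransferase 5-like. In Arabidopsis this acyltransferase takes part in making suberin, a lipid polymer of root and seed coat. Its protein accession led to LOC105647393 in RefSeq, the only member so matched (1 of 7).

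On slides 1 to 3 the brightest probe of contig00090 (position 1000, sense) read 8.06, 8.57 and 9.98 in toxic leaf and 8.94, 8.25 and 9.55 in non-toxic leaf. On those slides it read 7.38, 8.62 and 9.46 at stage I, 8.73, 8.55 and 9.87 at stage II, 8.78, 9.92 and 10.40 at stage III, 7.88, 7.67 and 9.29 at stage IV, 7.65, 7.75 and 9.93 at stage V, and 9.42, 9.49 and 10.72 at stage VI. On slide 4 it read 4.42 and 2.89 in toxic leaf, 3.58 and 1.77 in non-toxic leaf, and 4.02, 1.76 and 1.76 at stages II, V and VI, and only 1 of these 7 values was well above background. Every slide 4 value was below every value from the other slides. The mean gap between slide 4 and slides 1 to 3 was -6.26 over the groups present on both, and 0.182% of all probes had a larger one. The array of slide 3 was the highest of slides 1 to 3 in each of the 8 groups.

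The comparisons of contig00090 turn on that slide. Stage VI was 0.64 (SE 2.12) below stage I over all arrays, but 2.04, 0.86 and 1.25 above it within slides 1, 2 and 3. Leaf was 1.54 below seed stages II to V over all arrays (95% interval -3.91 to 0.84, adjusted p = 0.291, limma). The differences within slides 1 to 4, by contrast, were 0.24, -0.06, -0.11 and 0.28, the last against stages II and V only. In the authors' log2 table, where slide 4 arrays read 6.03 to 9.37 and the others 6.62 to 10.24, leaf was 1.17 lower (adjusted p = 0.00255, limma).

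Another probe of contig00090, at position 1500 (sense), was lit at stages II and III only. It read 5.61, 9.25 and 6.27 at stage III and 1.77, 5.52, 5.32 and 3.87 at stage II, of which all 3 and 2 of 4 were well above background. It read 1.86, 1.82 and 1.80 at stage IV, and no array of stages I, IV, V and VI or of leaf was well above background. At IV against III this was the only call among the 36 probes (1 lower, where 11.1% of all probes were called and 4.17% called lower), with a level at least 31-fold lower at stage IV (adjusted p = 3.15e-05, limma). The number of probes called in this step ran between 0 and 8 over the alternatives, and this probe was called in each of them but the threshold of 1e-08. The size of its difference moved, with -5.22 in the main values, -3.44 in the authors' table and -1.80 with normexp. In the authors' table and with normexp the difference was smaller than the bound of 31-fold. At stage III, 1 array (9.25) was well above the other 2. At III against II it was 2.92 (SE 0.69) higher (adjusted p = 0.00354, limma), a call lost without the slide 2 array of stage III (1.83, adjusted p = 0.0701). In the main values leaf was at least 2.47-fold lower than seed stages II to V on it (adjusted p = 7.30e-04, limma). The difference was smaller than that bound in the authors' table. The 3 other sense probes of contig00090 were lower at stage IV than III by 1.42 to 1.65 without being called (adjusted p of 0.102 to 0.792, limma), and the brightest was lower within each of slides 1 to 3 (-0.89, -2.25 and -1.11). With slide as a term, position 0 was called (-1.54, adjusted p = 0.0385). The brightest correlated with position 1500 at r = 0.302 over the 31 arrays.

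**Figure D4:**
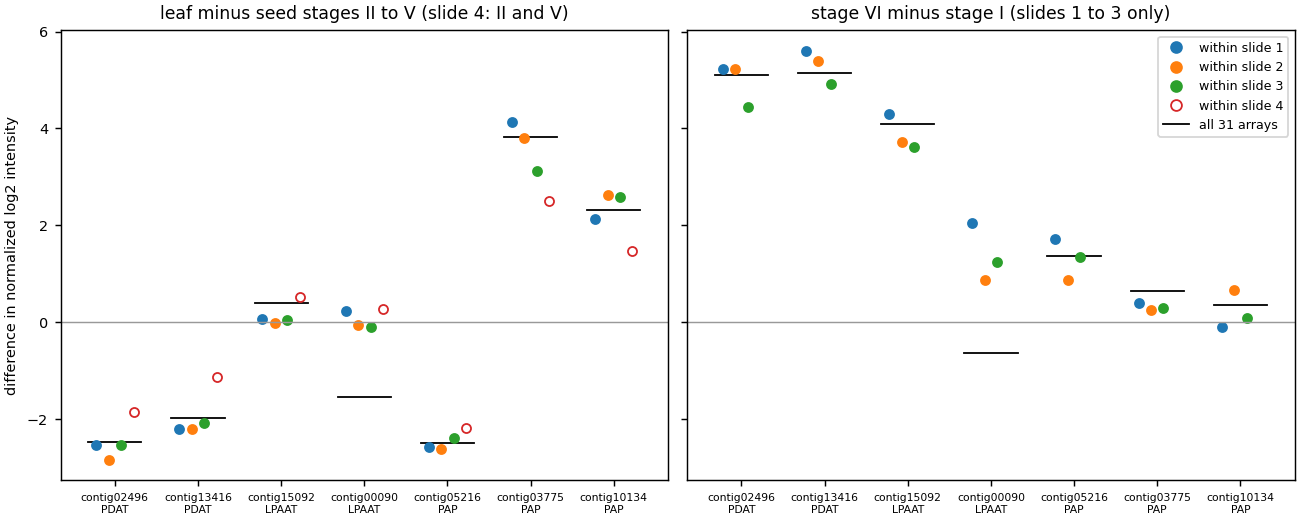
Difference in normalized log2 intensity of the brightest probe of each contig (vertical axis) within each slide (points) and over all 31 arrays (lines), for leaf minus seed stages II to V (left) and stage VI minus stage I (right). Slide points lie on 1 side of 0 for the PDAT and PAP contigs on the left, and for contig00090 they lie near 0 or above it while the line lies below.

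The PAP contigs were split between seed and leaf. Contig05216 was bright throughout the seed and lower in leaf, whereas contig03775 and contig10134 were brightest in leaf. Within seed, contig03775 was lowest at stage III and contig10134 at stages III to V. Contig10134 is also listed by the study as an acid phosphatase, an enzyme class that removes phosphate from many substrates.

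For contig05216 the brightest probe (position 250, antisense) read 9.33, 9.53, 9.34, 10.10 and 9.77 in toxic leaf and 9.85, 9.85, 10.39, 9.69 and 9.49 in non-toxic leaf. It read 11.88, 12.35 and 12.26 at stage I, 11.79, 12.13, 11.68 and 11.74 at stage II, and 12.02, 12.44 and 12.21 at stage III. Later values were 12.68, 12.39 and 12.83 at stage IV, 12.22, 12.26, 12.29 and 12.16 at stage V, and 13.60, 13.22, 13.61 and 13.68 at stage VI. No leaf array reached the lowest seed array, and stage VI was above all other stages, while stages I, II and III overlapped. Leaf lay at 0.177 times the level of seed stages II to V (difference -2.50, SE 0.12, adjusted p = 8.04e-16, limma). Within slides 1 to 4 the differences were -2.59, -2.61, -2.39 and -2.19, the last against stages II and V only. The other antisense probes of the contig, at positions 750 to 2250, differed by -2.28 to -3.01, all 4 called. The 5 sense probes were called lower too, at smaller differences (-0.38 to -1.82). Of these, position 0 was not well above background on any of the 31 arrays, and its call was lost in 16 of 31 fits without 1 array (adjusted p of 0.0501 to 0.0914). Positions 1000 and 1500 were well above background on no leaf array. In the main values they were at least 2.21-fold and 2.60-fold lower there, and in the authors' table both differences were smaller than these bounds.

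Along the seed stages none of the 3 tested steps was called for the brightest probe of contig05216 (differences of 0.39, 0.41 and -0.40, adjusted p of 0.259, 0.308 and 0.466, limma). Its antisense probe at position 750 was 0.97 higher at stage IV than III (adjusted p = 0.0782), which was called with slide as a term (adjusted p = 0.00717), on slides 1 to 3 (0.00314), with normexp (0.0225), on the seed arrays alone (0.0285) and in the authors' table (0.00180), where it was also called lower at V against IV (-0.71, adjusted p = 0.0280). The level was 1.29 (SE 0.20) higher at stage VI than V and 1.36 (SE 0.22) higher at VI than I, which is 2.57-fold.

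For contig03775 the brightest probe (position 500, sense) read 11.21, 9.91, 10.19, 10.49 and 11.30 in toxic leaf and 9.54, 10.81, 9.53, 10.99 and 11.30 in non-toxic leaf. It read 8.35, 8.06 and 8.29 at stage I, 6.01, 6.95, 6.97 and 8.28 at stage II, and 5.62, 5.01 and 5.78 at stage III, where the value of 5.01 was not well above background. Later it read 6.15, 6.99 and 6.97 at stage IV, 7.21, 7.27, 7.22 and 8.74 at stage V, and 8.75, 8.30, 8.59 and 9.90 at stage VI. Stage III was below every other group, the slide 4 array was the highest of stages II, V and VI, and leaf was above stages I to V without overlap. Leaf lay 14.1-fold above seed stages II to V (difference 3.82, SE 0.28, adjusted p = 6.15e-12, limma). The differences within slides 1 to 4 were 4.13, 3.80, 3.12 and 2.50, the last against stages II and V only, without the low stages III and IV. The sense probes at positions 0 and 1000 were 3.57 (SE 0.44) and 2.92 (SE 0.15) higher in leaf (adjusted p = 1.26e-07 and 6.71e-15, limma). A dim antisense probe at position 250 was also called higher in leaf, a call lost with 75th percentile scaling (0.44, adjusted p = 0.214, limma). At position 0, 10 of 10 leaf arrays were well above background, against 2 of 14 seed arrays. The highest array of stage IV read 7.97 there, above every leaf array (5.72 to 7.48), and the lowest of that stage read 1.81.

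The dip of contig03775 at stage III was called on 2 sense probes. At stage III against II the brightest was 1.58 lower (SE 0.51, adjusted p = 0.0334, limma) and position 1000 was 1.47 lower (SE 0.28, adjusted p = 4.70e-04). Within slides 1, 2 and 3 the brightest differed by -0.39, -1.94 and -1.19, and on slides 1 to 3 alone by -1.10 (adjusted p = 0.0333, limma). Position 1000 read 5.46, 5.64 and 4.81 at stage III and 6.38, 6.85, 6.67 and 7.21 at stage II, without overlap. The call of the brightest was lost without the slide 2, 3 or 4 array of stage II (adjusted p = 0.0503, 0.0510 and 0.152) and without the slide 1 or 2 array of stage III (adjusted p = 0.0633 and 0.153). It was also lost with 75th percentile scaling and with normexp background correction (adjusted p = 0.0958 and 0.155), while that of position 1000 was kept in each of these. From stage III to IV the brightest probe differed by 1.23 (SE 0.55, adjusted p = 0.167, limma), which was called with slide as a term (adjusted p = 0.0236), on slides 1 to 3 alone (adjusted p = 0.0253) and in the authors' table (0.98, adjusted p = 0.00945). Position 1000 was the only probe called at V against IV (1 of 36 probes, where 3.51% of all probes were called, 1.38% higher and 2.13% lower). It read 7.21, 7.28, 6.89 and 7.68 at stage V, against 5.68, 6.15 and 6.17 at stage IV, a 2.40-fold higher level (adjusted p = 0.00919, limma). That call was lost without the slide 1 array of stage IV (adjusted p = 0.0802).

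For contig10134 the brightest probe (position 250, antisense) read 9.03, 9.20, 8.89, 9.42 and 8.76 in toxic leaf and 8.72, 9.50, 9.64, 9.25 and 8.97 in non-toxic leaf. Seed values were 7.86, 7.45 and 7.49 at stage I, 7.25, 7.11, 7.35 and 8.15 at stage II, and 6.94, 6.38 and 6.50 at stage III. They were 6.52, 7.10 and 6.78 at stage IV, 6.31, 6.30, 6.06 and 7.10 at stage V, and 7.76, 8.11, 7.58 and 8.35 at stage VI. Every leaf array was above every seed array, and stages III, IV and V overlapped and were the lowest. Leaf lay 4.96-fold above seed stages II to V (difference 2.31, SE 0.15, adjusted p = 9.95e-13, limma). The differences within slides 1 to 4 were 2.12, 2.62, 2.60 and 1.48, the last against stages II and V only. The other antisense probe, at position 750, was 2.32 higher in leaf (SE 0.28, adjusted p = 7.13e-08). A dim sense probe at position 0 was also called higher in leaf. Its call was lost with 75th percentile scaling (0.39, adjusted p = 0.543, limma) and in 7 of 31 fits without 1 array (adjusted p of 0.0515 to 0.0616). At stage III against II both antisense probes were called lower, the brightest by 0.86 (SE 0.28, adjusted p = 0.0370, limma) and position 750 by 1.65 (SE 0.51, adjusted p = 0.0260). The call of the brightest was lost without the slide 4 array of stage II (adjusted p = 0.164) and without the slide 2 or 3 array of stage III (adjusted p = 0.154 and 0.104). That of position 750 was lost without the slide 3 or 4 array of stage II (adjusted p = 0.0580 and 0.0626) and without the slide 2 array of stage III (adjusted p = 0.359). On slides 1 to 3 alone the brightest differed by -0.55 (adjusted p = 0.0761). With 75th percentile scaling both calls were lost (-0.70, adjusted p = 0.0782, for the brightest and -0.97, adjusted p = 0.263, for position 750), and with normexp that of position 750 was lost (-0.29, adjusted p = 0.479).

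At the threshold of 1e-08 that the methods use, 11 of the 36 probes were called in leaf against seed stages II to V (11% of all probes), and 0 at III against II, IV against III and V against IV (0.0985%, 0.0121% and 0.00346% of all probes).

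Between toxic and non-toxic leaf no difference of these contigs passed the test. None of the 36 probes was called (0, limma, where 0.00519% of all probes were), and 2 had an unadjusted p under 0.05, where 3.87% of all probes did. Both were antisense probes of contig05216, at positions 1750 and 2250, lower in toxic leaf by 0.53 and 0.74. The brightest probes differed by -0.25 to 0.36. The 95% interval was -0.47 to 0.45 for contig02496, -0.66 to 0.16 for contig13416, -0.61 to 0.13 for contig05216, -0.64 to 0.33 for contig10134 and -0.83 to 0.58 for contig15092, so that differences of 2-fold lay outside them. It was -0.69 to 1.06 for contig03775 and -3.25 to 3.98 for contig00090, which include 2-fold differences.

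Among the 7 brightest probes, the PDAT pair was the most alike over the arrays (r = 0.975 over 31 arrays and 0.973 over the 21 seed arrays). Over the 31 arrays contig03775 and contig10134 came next (r = 0.876), and over the seed arrays contig15092 and contig05216 did (r = 0.886, against 0.706 for contig03775 and contig10134). Contig05216 ran against both over 31 arrays (r = -0.666 and -0.723) but not over the seed arrays (r = 0.473 and 0.309). These are descriptions over arrays that share groups and slides. Among 16443 other contigs with a probe well above background on at least 50% of the arrays, contig02685 was the most like contig02496 (r = 0.987) and contig16984 the most like contig13416 (r = 0.979). Contig16984 and contig17303 were among the 3 nearest of both PDAT contigs. The nearest to contig15092 were contig08469, contig06495 and contig00875 (r of 0.957 to 0.959), the last annotated as a WD40/YVTN repeat-like protein and the only one of these nearest contigs with a name in the annotation used here. The nearest to contig00090, contig05216, contig03775 and contig10134 were contig06563, contig11336, contig05484 and contig05707 (r of 0.984, 0.976, 0.977 and 0.968).

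The neighbouring enzymes of the pathway were read from the enzyme lists of the study, each contig by its brightest probe. In leaf against seed stages II to V, 49 of 65 contigs were called, 30 higher and 19 lower, where 47.9% of all probes were called, 26% higher and 21.9% lower. The background covers all probes and the list only the brightest of each contig. Of the 6 other LPAAT contigs, 3 were higher and 3 lower in leaf (median -0.18, against 0.06 over all probes), between -1.40 for contig21446 and 1.61 for contig10430. Of the 10 other contigs of glycerol-3-phosphate acyltransferase, which makes lysophosphatidic acid, 4 were higher and 4 lower (median 0.05). The largest difference there was that of contig01353, which read 2.71 in leaf and 13.38 in seed, with 1 of 10 leaf arrays well above background.

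Of the 6 DGAT contigs, 2 were higher and 2 lower in leaf (median -0.28). In the main values contig00653 was at least 264-fold lower in leaf, where it was not well above background on any array, and contig04042 was 3.50 higher. Diacylglycerol kinase turns diacylglycerol back into phosphatidic acid, the reverse of the PAP step. Of its 13 contigs, 9 were higher and 1 lower in leaf (median 0.72, where 26% of all probes were higher and 21.9% lower), the most by 3.28 for contig06624, and 1 of the 9, contig01321, was well above background on no array. Of 24 triacylglycerol lipase contigs, which break down stored oil, 10 were higher and 8 lower (median 0.37), with contig03782 4.98 higher. Of 7 phospholipase A2 contigs, which release fatty acids from phospholipids, 2 were higher and 2 lower (median 0.00), with contig12462 2.53 higher.

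At stage III against II, 1 of the 6 other LPAAT contigs was called, contig15096, 1.05 higher (SE 0.25, adjusted p = 0.00323, limma), where 6.52% of all probes were higher and 10.2% lower. Among the other lists 3 of 10 glycerol-3-phosphate acyltransferase contigs were higher and 0 lower, and 0 of 6 DGAT contigs were called. Of the diacylglycerol kinase contigs 0 were higher and 2 lower, of the lipases 5 were higher and 3 lower, and of phospholipase A2 1 was higher and 1 lower. Between stages VI and I, given with no test, the 6 other LPAAT contigs differed by 0.55 to 2.74 (median 1.63, against 0.09 over all probes). This range was bounded in advance, since the highest and the lowest listed contig on this difference had been taken out as members.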

How the data were processed

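Per the labels and the methods, RNA with an integrity number above 7.0 was labelled as cRNA with 1 dye. The authors deposited scanner files (Feature Extraction 10.5.1.1) with spot intensity values on a linear scale, detrended and background-subtracted, and a log2 table per probe, which the methods describe as averaged, imputed and quantile normalized. In that table slide 4 arrays are close to the others, by a step not given in the sources used here. From the intensities, control and outlier spots were left out, spots of a probe averaged, log2 taken, missing values (0.0473%) imputed from 10 neighbours and 31 arrays quantile normalized. 8 group means were fitted with limma 3.58.1 in R 4.3.3, and p-values were adjusted by Benjamini-Hochberg over 57842 probes, with a call at 0.05. The methods' threshold of 1e-08 was an alternative. Where no array of a group was well above background, a fold is a lower bound against the dimmest spot well above background on each array. Spots brighter than that one can lack the flag. The bound holds for the main values only, and under other settings a difference can be smaller. The fit was tested on simulated data with independent noise and no slide effect, so that test does not cover the difference of slide 4.

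Members, lists and contrasts were chosen with earlier results of these data known. All probes of the 7 contigs are described. The contigs most alike were the 3 with the highest Pearson r, and of the pathway lists the other LPAAT contigs and those with the largest differences were named. Direction was read from the probe position (multiples of 500 are sense), which held for 1216 of 1216 probes whose direction the study states. RefSeq (assembly XTBG_Jcur_1.0) was used for a name only. Slides are numbered in the order of the samples. Array numbers limit the precision. Alternatives were 75th percentile scaling, normexp (offset 50), a filter on dim probes, slide as a term, slides 1 to 3, the arrays of the groups compared, the deposited table, the mean of all probes in the brighter direction, and leaving out each array. Probe sequences were not used here.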

Additional observations from a re-analysis of the deposited data

Results flagged for a closer look

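The brightest probes of the 7 contigs were checked for single arrays far from the rest of their group in the 5 groups of 4 or 5 arrays, 35 sets of values in all. A gap was called far when its share of the range exceeded the 95% critical value of Dixon's test. In 6 sets 1 array was far, where chance gives about 1 in 20. These 6 values came from 5 arrays, since 1 array was far for 2 contigs, and 4 of the values were on slide 4.

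The slide 4 array of stage VI was low for contig00090 (1.76, against 9.42 to 10.72 on the others) and high for contig02496 (12.97, against 12.38 to 12.47). At stage V that of contig03775 was high (8.74, against 7.21 to 7.27), and at stage II that of contig15092 was high (7.80, against 6.75 to 6.90). The slide 1 array of stage II was low for contig02496 (7.96, against 8.83 to 8.99), and the slide 2 array of stage VI was low for contig05216 (13.22, against 13.60 to 13.68).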

How the results depend on the processing

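Of the 25 probes called in leaf against seed stages II to V, 22 to 24 kept their call under each other scaling, background correction, filter or set of arrays and 23 in the table of the authors, none turned round, and leaving out each array gave 22 to 25 calls. At 1e-08 the count was 11. At III against II the counts were 7 to 12 under the alternatives, 5 to 10 without 1 array and 0 at 1e-08. At IV against III there were 3 calls with percentile scaling, 3 with normexp, 6 with slide as a term (replicate block), 8 on slides 1 to 3, 2 on the seed arrays alone, 6 in the table of the authors, 0 at 1e-08, and 1 to 3 without 1 array. At V against IV there were 2 on slides 1 to 3, 2 in the table of the authors, 0 at 1e-08, and 0 to 1 without 1 array. Toxic against non-toxic leaf gave 0 throughout. The pathway lists held 16 calls at 1e-08, 45 to 56 under the other settings and 44 to 50 without 1 array, an alternative chosen after seeing the data.

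The difference between stages VI and I of contig02496 was 4.63 with normexp, and that of contig15092 3.50. For contig13416 percentile scaling gave 4.83, normexp 3.70 and the authors' values 4.62. For contig00090 it reversed: 0.23 with normexp, 0.895 with slide as a term (replicate block), 1.32 on slides 1 to 3, 0.995 in the table of the authors and 1.38 without the slide 4 array of stage VI (range -1.60 to 1.38 without 1 array). Its leaf difference reversed to 0.16 with the replicate block and 0.012 on slides 1 to 3. The slide term, slides 1 to 3 and the left-out array show the part of slide 4 by their construction, whereas normexp and the table of the authors keep its arrays. For the brightest probe of contig15092 the leaf difference was called in the table of the authors (0.51) and as a mean of both sense probes (0.48, adjusted p = 0.029). For the other changed values the cause was not tested. Replicate numbers follow the slides and are not given in the labels, so the replicate block is a slide term. It changed no other call of a brightest probe in leaf against seed. Dim probes, with 5 of 36 never well above background, limit what can be measured.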
